A study of Mus musculus with 6 samples.

Results

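The 32 genes described here encode the core machinery that builds autophagosomes, picked by symbol from the 21878 genes of an FPKM table. They comprise 5 subunits of the ULK initiation complex, 6 genes of the class III PI3-kinase complex and its partners (nucleation), 10 conjugation enzymes and proteases, 5 ATG8 proteins, and 6 genes of lipid transfer and membrane supply, which are kept as a set of their own. Expression was compared between 3 libraries of control HT22 cells (control group) and 3 libraries of HT22 cells exposed for 24 h to 120 µM aluminum maltolate (Al group), to ask how aluminum alters the transcriptome of this cell line. HT22 is an immortalized line derived from mouse hippocampal neurons, and maltolate is a ligand that keeps aluminum soluble at neutral pH. The dose and time come from the study's methods, since the sample labels give only the range from 0 to 240 µM, and the methods list a control in medium alone beside a maltol control without naming either for the sequencing. The titles of the treated libraries carry the letter M, which the labels do not explain, and their place in the Al group was inferred from the series design and the study's own naming. All 6 libraries were inputs of an m6A immunoprecipitation experiment, made from fragmented RNA before enrichment.

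Autophagy encloses cytoplasm in a double membrane and delivers it to the lysosome. The ULK kinase complex starts the process, the class III PI3-kinase makes the lipid PI3P on the nascent membrane, and ATG9 vesicles and ATG2 proteins supply membrane and lipid. A pair of ubiquitin-like conjugation reactions then attaches ATG8 proteins to that membrane, where they bind cargo receptors and help to close the autophagosome. Neurons rely on this pathway to clear aggregated protein and damaged organelles along their processes. Messenger RNA levels of these genes do not measure autophagic flux.

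Behind the FPKM stood 38059492 to 44556768 reads in each control library and 21125631 to 26670978 in each Al library. Each library was divided by a size factor (median of ratios) to give scaled FPKM, the unit of the levels below, and FPKM is normalised for gene length, so that levels can be compared between genes. Of the 8 neuronal markers, 2 (Tubb3 and Eno2) reached 1 FPKM in any library and Snap25 was at 0 in all 6. Sums of marker lists are of FPKM as deposited, before the size factors. The neuronal sum was 7.71 to 9.52 in the control group and 3.89 to 7.57 in the Al group. After the size factors Tubb3 had 4.49 ± 0.213 in control and 4.02 ± 0.974 in Al, and Eno2 had 2.44 ± 0.643 and 2.06 ± 1.34. Neither was called (log2 fold changes of -0.19 and -0.38). Under the scalings described below, Tubb3 was called lower with FPKM as deposited (-0.66) and TPM (-0.95), and Eno2 with TPM (-1.12). The 5 fibroblast markers summed to 2011 to 3194 FPKM in the control group and 2469 to 3451 in the Al group, nearly all of it Col1a1 and Col1a2. The list went both ways, since Dcn, Lum and Pdgfra were called lower (log2 fold changes of -1.64, -2.28 and -1.22) under all 4 scalings described below and Col1a1 was called higher (0.92) after the size factors alone among them, while Col1a2 was called lower after quantile normalization (-1.04). Markers of astrocytes summed to 14.0 to 23.3 FPKM in control and 1.56 to 2.70 in Al libraries, most of it Slc1a3, which was called lower (-2.96) under all 4 scalings, while Aqp4 was at 0 in all 6. Microglial markers summed to 39.4 to 49.0 and 22.2 to 72.6 FPKM, nearly all of it Tmem119, with P2ry12 at 0, Cx3cr1 called higher under all 4 scalings (2.14 after the size factors) and Aif1 called lower under the 3 scalings other than the size factors. Oligodendrocyte markers stayed at 0.314 or less in control and 0.799 or less in Al libraries, and endothelial markers at 0.2498 or less and 0.700 or less. At such low levels Pecam1 was called higher after the size factors (1.26) and with FPKM as deposited (1.03), and the astrocyte marker S100b was called lower under the 3 other scalings. The defining markers of mature neurons were thus largely absent, and the part of these shifts in the results below was not tested. In bulk RNA, a change in the number of cells and a change in RNA per cell cannot be told apart.

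All 32 genes passed the minimum of a mean FPKM of 0.1. Calls used the thresholds of the study, P under 0.05 before adjustment together with a log2 fold change beyond 0.58 in either direction. In the Al group 6 of the 32 rose (Atg101, Atg14, Atg16l1, Map1lc3b, Gabarap and Gabarapl2), 5 fell (Ulk1, Ulk2, Atg9a, Wipi1 and Atg4c) and 21 were not called. That is 34.4% of the set, where 50.6% of all 12889 tested genes were called (26.2% higher and 24.4% lower). All 11 calls were kept when the Benjamini-Hochberg adjusted P from limma replaced the unadjusted P, which 49.2% of all tested genes passed. Of the genes not called, 10 had an unadjusted P under 0.05 with a fold change within the threshold, 4 of them higher and 6 lower. The libraries of the groups did not overlap for 22 of the 32 genes (10 above and 12 below), against 68.1% of all tested genes (35.1% above and 33.1% below). On GRCm38, 16 of the 32 genes overlap another gene on either strand, 12 of them an antisense gene, and 5 have a near-identical gene elsewhere. Their values are uncertain, since the libraries were stranded but whether the counting used strand is not stated. Counting by strand would not separate overlapping genes of the same strand. Among the genes that rose or fell, Atg14 (with Gm49004 and Gm6616), Atg9a and Map1lc3b have antisense genes, and Gabarapl2 has near-identical copies. On their own strand Atg9a overlaps Gm29253, Map1lc3b overlaps Gm20388 and Atg16l1 contains the small RNA genes Scarna6 and Gm25395.

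All 11 called genes kept their direction under the 4 scalings of the libraries that were compared, but the size of the changes and some of the calls depended on the scaling, since the median over all tested genes, as a log2 fold change, was 0.03 after the size factors, -0.43 with FPKM as deposited, -0.72 after scaling to equal sums (TPM) and -0.03 after quantile normalization. The members' median moved with it and was -0.13, -0.60, -0.90 and -0.07. It lay 0.16 below the median of all genes after the size factors and 0.04 to 0.18 below it under the other scalings. The gain of Atg101, Atg14 and Atg16l1 and the loss of Ulk1, Ulk2, Atg9a, Wipi1 and Atg4c were called under all 4 scalings, so that 8 of the 32 genes, or 25.0%, passed, where 29.2% of all tested genes did (8.73% higher and 20.4% lower). Map1lc3b, Gabarap and Gabarapl2 were not called under all 4. With FPKM as deposited 4 members were called higher and 17 lower, beside 14.0% and 42.0% of all tested genes, or 65.6% of the members beside 56.0%. With TPM the counts were 3 and 21, beside 9.30% and 53.1%, or 75.0% of the members beside 62.4%. After quantile normalization they were 4 and 7, beside 22.0% and 24.1%, or 34.4% beside 46.1%. The share of members called was thus below that of all genes under the size factors and quantile normalization and above it under the other scalings. Rb1cc1, Atg13, Pik3r4, Atg2a, Wipi2, Vmp1, Atg3, Atg4a, Atg4d, Atg7, Atg10 and Map1lc3a were called lower with both FPKM as deposited and TPM, and Pik3c3, Atg4b, Atg5 and Atg12 with TPM. In the text that follows, "not called" refers to the size factors.

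**Figure D1:**
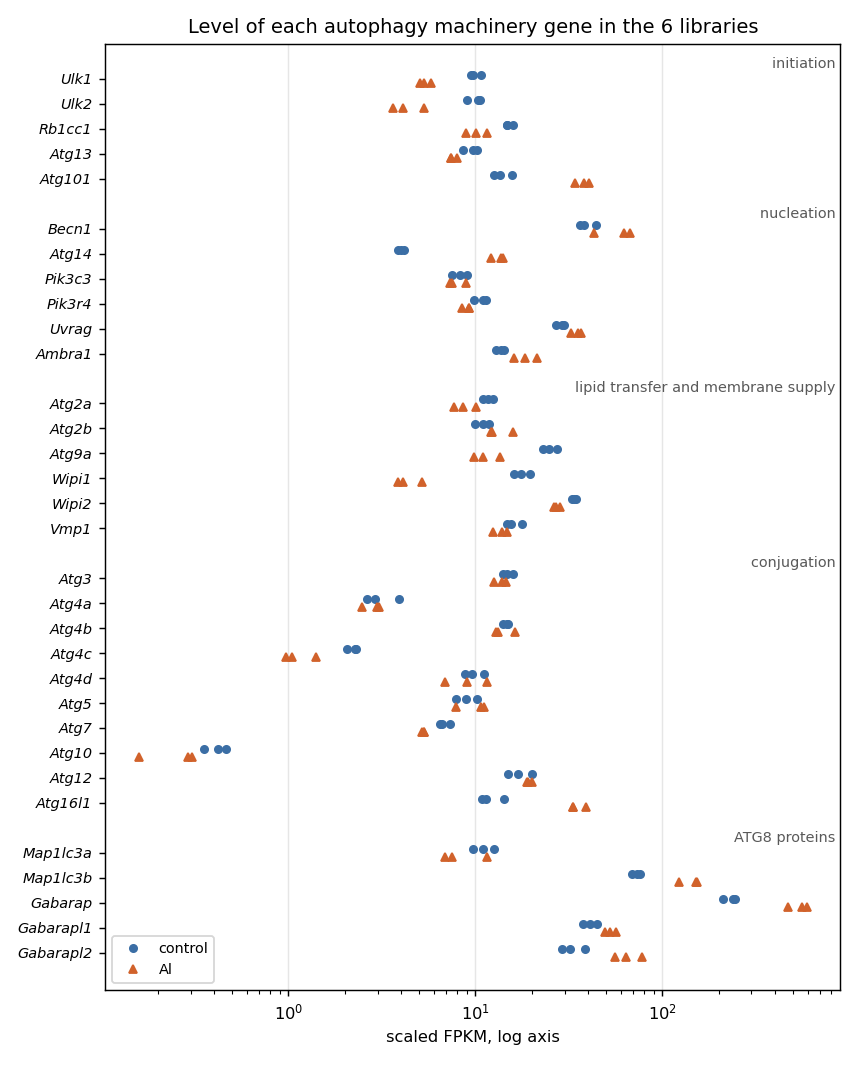
Scaled FPKM (log axis) of the 32 genes, grouped by step, with circles for the 3 control libraries and triangles for the 3 Al libraries. Control means run from 0.413 for Atg10 to 231.9 for Gabarap. The Al libraries stand clear of the control libraries for 22 of the 32 genes, beside 68.1% of all tested genes.

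In control cells the ATG8 gene Gabarap was the most abundant of the set at 231.9 ± 17.9 scaled FPKM (SD, n = 3), followed by Map1lc3b at 72.6 ± 3.25. Gabarapl1 (41.3 ± 3.38) and Becn1 (39.6 ± 4.29) came next and did not differ beyond their spread. Of the 32 genes, 26 lay between 5 and 50. At the low end were Atg14 (4.003 ± 0.163), Atg4a (3.14 ± 0.661), Atg4c (2.21 ± 0.136) and Atg10 (0.413 ± 0.0574), the last with 71 to 85 reads per control library and 12 to 25 per Al library. Treatment reordered the middle of this range. Wipi1 went from the 9th to the 29th highest level and Atg9a from the 8th to the 17th, whereas Atg101 went from the 15th to the 6th, Atg16l1 from the 17th to the 7th and Atg14 from the 29th to the 16th.

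The ULK complex changed in both directions. Ulk1 and Ulk2 encode the kinases that start autophagosome formation and both fell, whereas Atg101, which encodes the partner that stabilizes ATG13 in the complex, rose. Ulk1 (chr5:110784488-110810097, minus strand) was 10.7, 9.76 and 9.46 scaled FPKM in control libraries and 5.08, 5.34 and 5.81 in Al libraries. Ulk2 (chr11:61775649-61855073, minus strand) was 10.6, 10.3 and 8.99 in control libraries and 5.33, 4.12 and 3.64 in Al libraries. Every Al library was below every control library for both kinases, with log2 fold changes of -0.87 ± 0.11 for Ulk1 (SE, adjusted P = 0.000240 by limma) and -1.19 ± 0.16 for Ulk2 (adjusted P = 0.000267). The kinases therefore started at nearly the same level, and their ratio within a library, 1.002 ± 0.0549 in control and 1.28 ± 0.321 in Al, overlapped between the groups.

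Atg101 (chr15:101284272-101290945, plus strand) was 12.5, 13.5 and 15.7 scaled FPKM in control libraries and 40.7, 38.0 and 34.1 in Al libraries. Its lowest Al library was well above its highest control library, and the mean was 2.70-fold higher (log2 fold change 1.43 ± 0.12, SE, adjusted P = 2.57e-05 by limma). Atg13, whose protein pairs with ATG101 through their HORMA domains, had means of 9.51 ± 0.831 in control and 7.64 ± 0.325 in Al and was not called (log2 fold change -0.31, adjusted P = 0.0383 by limma). The ratio of Atg101 to Atg13 within a library, in which a factor common to the library cancels, was 1.47 ± 0.151 in control and 4.94 ± 0.619 in Al. This ratio was chosen after the values were seen and is given without a test. Rb1cc1, which encodes the scaffold FIP200 and has a near-identical pseudogene (Gm13961), had 15.2 ± 0.613 in control and 10.2 ± 1.34 in Al and a log2 fold change of -0.58 that lay just inside the threshold. It was called lower when control replicate 1, control replicate 3 or Al replicate 3 was left out (-0.61, -0.60 and -0.66), under each of the 3 other scalings (-1.06, -1.36 and -0.58) and with a pseudocount of 0.01. The median of the 5 genes was -0.58 after the size factors, -1.06 with FPKM as deposited, -1.36 with TPM and again -0.58 after quantile normalization.

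**Figure D2:**
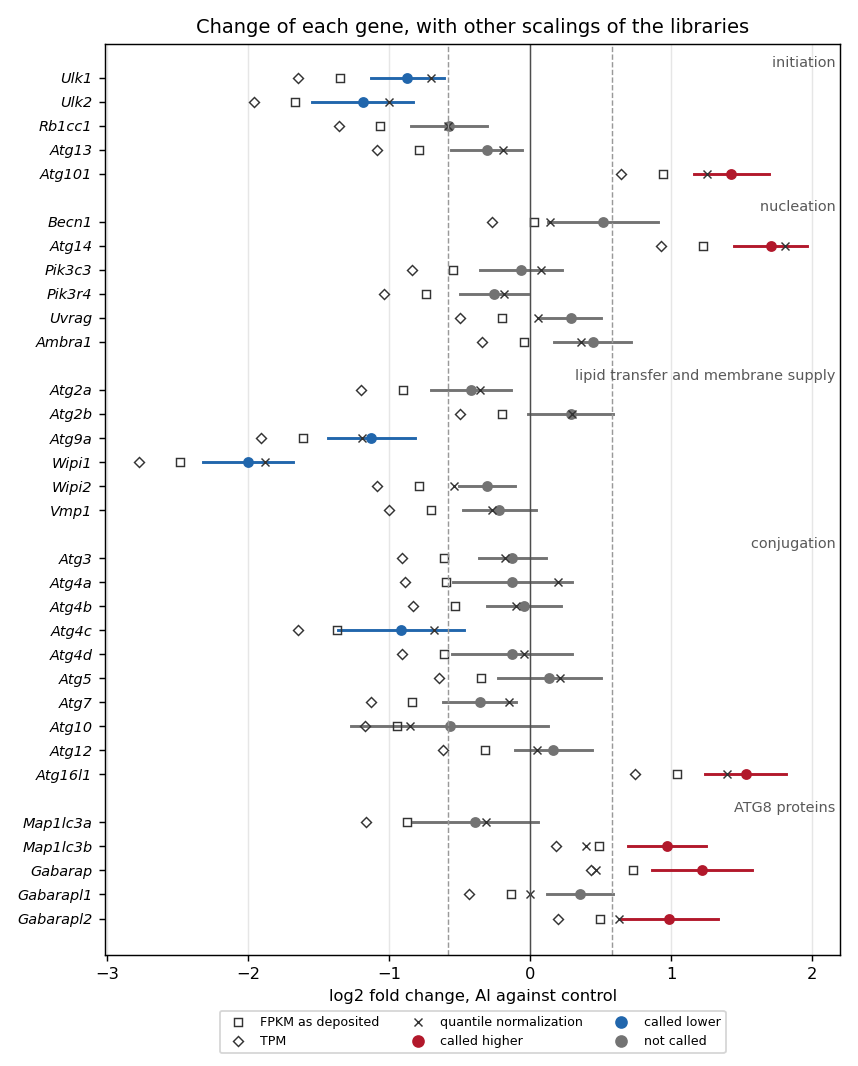
Log2 fold change of each gene, Al against control, after size factors (filled circles with 95% confidence interval, red for called higher, blue for called lower and gray for not called), with FPKM as deposited (squares), TPM (diamonds) and quantile normalization (crosses). Dashed lines mark the threshold of 0.58. Wipi1 at -2.001 and Atg14 at 1.71 are the extremes, and Gabarap, Map1lc3b and Gabarapl2 lie closer to 0 under the other scalings.

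Among the nucleation genes Atg14 stood apart from its complex partners. It encodes the subunit that directs the class III PI3-kinase to sites of autophagosome formation, and it had the largest increase of the 32 genes after the size factors. Atg14 (chr14:47540893-47570649, minus strand) was 3.98, 3.85 and 4.18 scaled FPKM in control libraries and 12.1, 13.7 and 14.1 in Al libraries. The mean was 3.32-fold higher (log2 fold change 1.71 ± 0.11, SE, adjusted P = 1.24e-05 by limma), and the replicates of each group lay close together. The lipid kinase gene Pik3c3 (VPS34) had 8.27 ± 0.784 in control and 7.91 ± 0.854 in Al, a difference within the replicate spread (log2 fold change -0.06, 95% interval -0.35 to 0.23). Pik3r4, its regulatory subunit VPS15, had 10.7 ± 0.767 and 8.98 ± 0.393 and was not called (-0.25).

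Uvrag encodes the subunit that takes the place of ATG14 in the endosomal form of the complex. Its level was 28.6 ± 1.32 in control and 35.0 ± 2.10 in Al, and it was not called (log2 fold change 0.29), a value that is uncertain because 4 antisense genes overlap it and part of it is near-identical to Klhl20. The ratio of Atg14 to Uvrag within a library, chosen after the values were seen and given without a test, was 0.140 ± 0.00217 in control and 0.380 ± 0.00845 in Al. Becn1, the Beclin 1 subunit common to both forms, was 36.3, 38.0 and 44.4 in control libraries and 62.6, 66.9 and 42.9 in Al libraries. Al replicate 3 lay within the control range, so that the groups overlapped, and the log2 fold change of 0.52 was within the threshold (adjusted P = 0.0264 by limma). Becn1 was called higher, at 0.72, without Al replicate 3 and, at 0.59, without control replicate 3. Ambra1, which encodes a Beclin 1 binding regulator, had 13.6 ± 0.694 and 18.6 ± 2.58 and was not called (0.44). The median of the 6 nucleation genes was 0.37 after the size factors and 0.11 after quantile normalization, but -0.12 with FPKM as deposited and -0.42 with TPM.

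Wipi1 and Atg9a fell, while their closest functional partners were not called. WIPI proteins bind PI3P on the growing membrane, and ATG9A is the scramblase carried by the vesicles that seed it. Wipi1 (chr11:109573331-109611967, minus strand) was 19.5, 17.5 and 16.01 scaled FPKM in control libraries and 4.08, 3.85 and 5.16 in Al libraries. This was the largest change of the 32 genes under the size factors, 4.05-fold lower on the means (log2 fold change -2.001 ± 0.14, SE, adjusted P = 1.45e-05 by limma), and no Al library reached even the level of the lowest control library. Wipi2, which encodes the family member that recruits ATG16L1, had 33.7 ± 0.824 in control and 27.3 ± 1.03 in Al and was not called (-0.30).

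Atg9a (chr1:75180860-75192196, minus strand) was 24.7, 23.0 and 27.3 in control libraries and 9.82, 10.99 and 13.6 in Al libraries, a log2 fold change of -1.13 ± 0.14 (SE, adjusted P = 0.000159 by limma). The antisense gene Ankzf1 overlaps it, at 3.04 in control and 1.91 in Al, so that reads of the pair may not have been told apart. Atg2a and Atg2b encode lipid transfer proteins that channel phospholipid into the membrane. Atg2a had 11.7 ± 0.672 in control and 8.79 ± 1.21 in Al, Atg2b had 10.9 ± 0.936 and 13.4 ± 2.10, and neither was called (-0.42 and 0.29). Vmp1, an ER scramblase with a near-identical pseudogene (Gm1969) that makes its value uncertain, had 15.98 ± 1.55 and 13.7 ± 1.16 (-0.22, not called). The median of these 6 genes was -0.36 after the size factors and -0.45 after quantile normalization, while FPKM as deposited gave -0.85 and TPM -1.14, with 5 of the 6 called lower in both, beside 42.0% and 53.1% of all tested genes and their medians of -0.43 and -0.72.

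In the conjugation step Atg16l1 rose and Atg4c fell, and the other 8 genes were not called. ATG16L1 binds the ATG12-ATG5 conjugate and brings it to the membrane, where the complex acts like an E3 ligase for ATG8 lipidation. Atg16l1 (chr1:87755870-87792428, plus strand) was 10.9, 11.4 and 14.2 scaled FPKM in control libraries and 33.2, 33.5 and 39.0 in Al libraries, 2.89-fold higher on the means (log2 fold change 1.53 ± 0.13, SE, adjusted P = 2.57e-05 by limma). Its partners did not follow. Atg5 had 8.97 ± 1.18 in control and 9.92 ± 1.75 in Al (log2 fold change 0.14, 95% interval -0.23 to 0.50) and Atg12 had 17.3 ± 2.59 and 19.3 ± 0.611 (0.17, -0.11 to 0.44). The ratio of Atg16l1 to Atg5 within a library, chosen after the values were seen and given without a test, was 1.39, 1.29 and 1.39 in control and 3.08, 3.02 and 4.93 in Al.

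Atg7, the E1-like enzyme of both conjugation reactions, had 6.81 ± 0.475 in control and 5.28 ± 0.0654 in Al (log2 fold change -0.36, not called). Atg3, the E2-like enzyme for ATG8 proteins, had 14.9 ± 0.995 and 13.6 ± 0.998 (-0.13, not called). Atg10, the E2-like enzyme for ATG12, had the fewest reads and a log2 fold change of -0.57. Its 95% interval, from -1.27 to 0.13, holds changes past the threshold. The 0.1 added before taking logs makes changes of so low a gene read smaller. Atg10 was called lower under each of the 3 other scalings (-0.94, -1.17 and -0.85).

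The ATG4 proteases prime ATG8 proteins and later release them from the membrane, and of the 4 genes only Atg4c was called. Atg4c (chr4:99193934-99259787, plus strand) was 2.28, 2.30 and 2.05 scaled FPKM in control libraries and 0.967, 1.40 and 1.04 in Al libraries (log2 fold change -0.91 ± 0.20, SE, adjusted P = 0.00351 by limma). Atg4b, the most abundant of the 4, had 14.6 ± 0.475 in control and 14.2 ± 1.89 in Al, and its antisense gene Thap4 had means of 15.2 and 10.5. Atg4d had 9.86 ± 1.19 and 9.16 ± 2.33, and its antisense gene Kri1 had 8.91 and 11.8, so that these values and the ratios that use them are uncertain. Atg4a, whose value is uncertain because of the near-identical gene Atg4a-ps, had 3.14 ± 0.661 and 2.84 ± 0.319. The log2 fold changes of these genes were -0.05, -0.13 and -0.13, each smaller than the replicate spread. Atg4b turned positive without Al replicate 1 or 2, Atg4d without Al replicate 1 and Atg4a without control replicate 3.

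The ATG8 genes were the set with the highest median, 0.97 after the size factors, with 3 of 5 called higher and 0 lower, beside 26.2% and 24.4% of all tested genes. Gabarap (chr11:69991143-69994951, plus strand) was 211, 239.8 and 244 scaled FPKM in control libraries and 595, 559.7 and 469 in Al libraries (log2 fold change 1.22 ± 0.16, SE, adjusted P = 0.000223 by limma). Map1lc3b, the gene of LC3B, whose lipidated form is the usual marker of autophagosomes, was 72.9, 69.2 and 75.6 in control and 154, 152 and 123 in Al (0.97 ± 0.12, adjusted P = 0.000188 by limma). Gabarapl2 (GATE-16) was 28.9, 31.96 and 38.6 in control and 64.1, 77.9 and 55.9 in Al (0.99 ± 0.15, adjusted P = 0.000585 by limma). No Al library of these 3 genes reached down to the control range. Gabarapl2 has 4 near-identical pseudogenes and its value is uncertain, and Map1lc3b overlaps the antisense gene Zcchc14, at 26.5 in control and 26.1 in Al.

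Gabarapl1 had 41.3 ± 3.38 in control and 52.8 ± 3.49 in Al and was not called (log2 fold change 0.36). Map1lc3a, the LC3A gene, was 10.99, 12.5 and 9.73 in control and 11.5, 6.85 and 7.51 in Al, groups that overlapped through Al replicate 1 (-0.39, not called, and called lower at -0.61 without that library). The size of the ATG8 increase rested on the scaling. With FPKM as deposited the log2 fold changes of Gabarap, Map1lc3b and Gabarapl2 were 0.73, 0.49 and 0.50, with TPM they were 0.43, 0.19 and 0.20, and after quantile normalization 0.47, 0.40 and 0.63. Their direction was positive under each of the 4 scalings, and 1, 0 and 1 of the 5 genes were called higher under these alternatives, while Map1lc3a was called lower with FPKM as deposited (-0.87) and TPM (-1.17).

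A factor common to all genes of a library cancels in the make-up of the family, which was taken from FPKM as deposited. Gabarap supplied 58.4%, 60.2% and 59.7% of the summed FPKM of the 5 genes in control libraries and 67.5%, 66.2% and 66.2% in Al libraries. Its share was higher in every Al library. The share of Gabarapl1 was 10.6% ± 0.577 in control and 6.56% ± 0.818 in Al, and that of Map1lc3a 2.85% ± 0.418 and 1.06% ± 0.2501, both lower in every Al library. The shares of Map1lc3b (18.7% ± 1.39 and 17.6% ± 0.339) and Gabarapl2 (8.48% ± 0.816 and 8.12% ± 0.984) overlapped between the groups. The 5 genes together held 0.123% ± 0.00461 of the summed FPKM of a control library and 0.148% ± 0.00452 of that of an Al library.

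**Figure D3:**
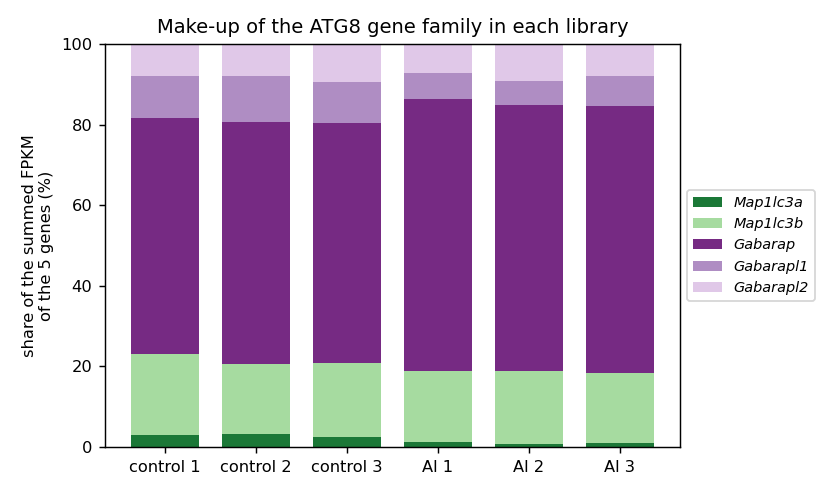
Share (%) of each ATG8 gene in the summed FPKM of the 5 genes, 1 stacked bar per library, with the LC3 genes in green and the GABARAP genes in purple. Gabarap takes 58.4% to 60.2% of a control bar and 66.2% to 67.5% of an Al bar.

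Ratios between related genes were compared within each library, where a factor common to the library cancels. Of the 8 ratios, 6 did not overlap between the groups, where 68.1% of single tested genes did not, and the share over other gene pairs was not computed. The ratio of Wipi1 to Wipi2 moved most, from 0.524 ± 0.0442 in control to 0.159 ± 0.0194 in Al (difference of -1.69 on the log2 scale). The ratio of Map1lc3a to Map1lc3b went from 0.154 ± 0.0264 to 0.0603 ± 0.0149 (-1.36), that of Atg4d to Atg4c from 4.50 ± 0.834 to 8.203 ± 2.49 (0.76), and that of Atg2a to Atg2b from 1.08 ± 0.0750 to 0.656 ± 0.0330 (-0.70). Gabarapl1 to Gabarapl2 went from 1.26 ± 0.169 to 0.819 ± 0.163 (-0.63), so that the order of the pair turned. The summed LC3 genes stood at 0.274 ± 0.0237 of the summed GABARAP genes in control and 0.230 ± 0.00349 in Al (-0.25). The exact two-sided permutation test gave p = 0.1 for each of these 6 ratios, the smallest value that 3 against 3 libraries can give, and 0.133 after Benjamini-Hochberg adjustment over the 8 ratios, so that this design could not reach a threshold of 0.05. The ratios of Ulk1 to Ulk2 (exact p = 0.3) and of Atg4b to Atg4a (exact p = 1) overlapped between the groups.

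**Figure D4:**
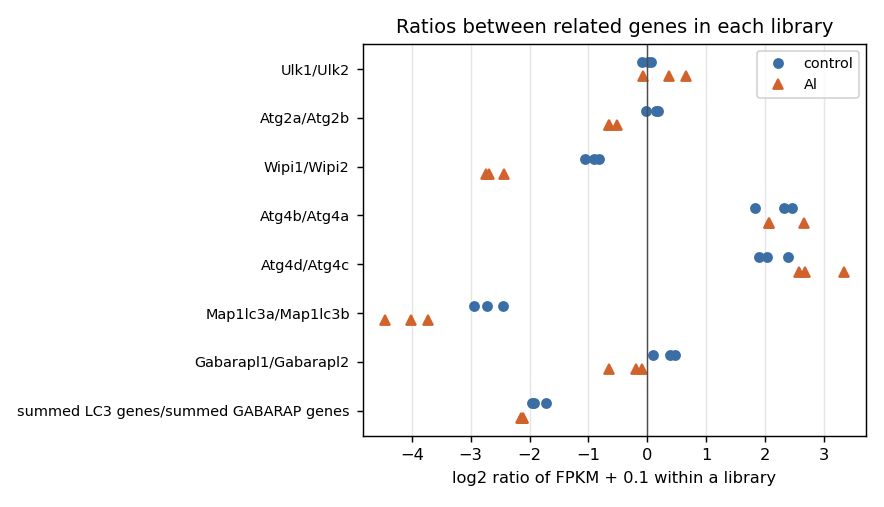
Log2 ratio of FPKM (with 0.1 added to each) between related genes within each library, circles for control and triangles for Al. The groups are apart for 6 of the 8 ratios, the widest gap being that of Wipi1 to Wipi2, and overlap for Ulk1 to Ulk2 and Atg4b to Atg4a.

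Log2 fold changes were also set beside gene length. Across the 32 genes, log2 fold change and log2 length behind the FPKM had Pearson's r = -0.38 and Spearman's rho = -0.49, as a description over genes that share the same 6 libraries, and over all 12889 tested genes the values were -0.16 for each. The 15 members shorter than the median length of tested genes held 4 of the 6 genes that rose and 1 of the 5 that fell, and the 17 longer ones held 2 and 4. ATG8 genes lay between 980 bases (Gabarapl2) and 1773 bases (Gabarapl1). Over all tested genes the median log2 fold change went from 0.33 in the shortest of 5 equal bins, which reached 1745 bases, to -0.22 in the longest. With GC content r was 0.06 over the members. The part of length in these results was not tested.

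Other autophagy genes were examined as 5 lists with 84 genes, of which 81 were tested. Of these, 19 rose and 20 fell, 48.1% in all beside 50.6% of all tested genes (26.2% higher and 24.4% lower), with a median log2 fold change of -0.11. With TPM 17 of the 19 genes that rose were not called, and 8 of them turned negative (Akt1s1, Lamp2, Sec62, Sesn2, Sqstm1, Tsc1, Vps33a and Vti1b), whereas all 20 that fell stayed called. After quantile normalization 10 of the 19 and 7 of the 20 lost their call, and Sqstm1 turned negative. The share of all tested genes called with FPKM as deposited (14.0% higher and 42.0% lower), with TPM (9.30% and 53.1%) and after quantile normalization (22.0% and 24.1%) is the background for the counts of each list under those scalings. Fusion of the autophagosome with the lysosome had the highest median, 0.54, with 7 of 15 genes higher and 1 lower after the size factors. With TPM 1 was higher and 7 lower and the median was -0.23, beside 9.30% higher, 53.1% lower and a median of -0.72 over all tested genes. With FPKM as deposited 3 fusion genes were higher and 6 lower (median 0.065, beside -0.43 over all tested genes). After quantile normalization 3 were higher and 0 lower (median 0.25, beside -0.03). Vps18, a subunit of the HOPS tethering complex, rose from 14.4 ± 0.260 to 42.9 ± 3.69 scaled FPKM (log2 fold change 1.56), and the lysosomal membrane gene Lamp1 rose from 293.3 ± 35.2 to 657.6 ± 66.2 (1.17), a call lost with TPM (0.38) and after quantile normalization (0.25). Stx17, the SNARE of the completed autophagosome, fell from 2.92 ± 0.141 to 1.86 ± 0.175 (-0.63), a call lost without Al replicate 1 (-0.55), after quantile normalization (-0.30) and at a pseudocount of 1 (-0.46).

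The 15 accessory genes had a median of -0.44, with 2 higher and 7 lower. The median was -0.92 (2 and 9) with FPKM as deposited, -1.22 (0 and 11) with TPM and -0.44 (2 and 4) after quantile normalization. Trp53inp2, whose protein binds ATG8 proteins and shuttles from the nucleus to the autophagosome, fell from 24.9 ± 1.62 to 2.87 ± 0.523 (-3.08), and Bcl2, an inhibitor of Beclin 1, fell from 2.88 ± 0.729 to 0.521 ± 0.128 (-2.26). Its relative Bcl2l1 rose from 13.7 ± 1.19 to 32.2 ± 6.76 (1.21), as did the WIPI family gene Wdr45b, from 16.8 ± 0.109 to 41.3 ± 2.99 (1.29), and both calls were lost with TPM (0.43 and 0.51). Among 12 cargo receptors 3 rose and 4 fell, but 1 was higher and 6 lower with FPKM as deposited, 0 and 6 with TPM and 1 and 5 after quantile normalization. Tollip rose from 24.9 ± 1.90 to 57.7 ± 3.10 (1.21, not called at 0.43 with TPM) and the ER-phagy receptor Sec62 from 22.9 ± 1.96 to 35.2 ± 2.39 (0.62, not called at 0.13 with FPKM as deposited, at -0.17 with TPM and at 0.40 after quantile normalization), whereas Calcoco1 fell from 9.10 ± 0.978 to 1.97 ± 1.18 (-2.38) and Optn from 3.76 ± 0.354 to 1.46 ± 0.274 (-1.32).

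Among 27 tested genes of nutrient and energy sensing 6 rose and 5 fell. With FPKM as deposited 2 were higher and 12 lower, with TPM 1 and 16, and after quantile normalization 3 and 4. Prkab1, a regulatory subunit of AMPK, rose from 13.3 ± 0.547 to 47.7 ± 4.60 (1.84), and Rragc, a Rag GTPase of the lysosomal mTORC1 branch, rose from 71.4 ± 5.42 to 170.6 ± 3.37 (1.26, not called at 0.47 with TPM). Deptor, an mTOR inhibitor, fell from 2.04 ± 0.0993 to 0.423 ± 0.0653 (-2.04), and Nprl3, of the GATOR1 complex that restrains mTORC1, fell from 6.39 ± 0.401 to 3.09 ± 0.528 (-1.04). Of 12 transcription regulators 1 rose and 3 fell, but 0 were higher and 8 lower with FPKM as deposited, 0 and 9 with TPM and 1 and 2 after quantile normalization. Flcn, which keeps TFEB out of the nucleus under feeding, rose from 28.2 ± 1.12 to 52.0 ± 2.53 (0.88), a call lost with FPKM as deposited (0.39) and TPM (0.10), while Zkscan3, a repressor of autophagy genes, fell from 11.2 ± 0.701 to 6.35 ± 0.799 (-0.82) and Foxo3, an activator, fell from 13.5 ± 0.812 to 8.67 ± 1.84 (-0.65, not called at -0.46 when Al replicate 1 was left out). These 18 named genes were picked from the called genes as the largest changes of each list, so that small P values follow from the choice. All their adjusted P values were 0.00704 or less by limma, over all tested genes.

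**Figure D5:**
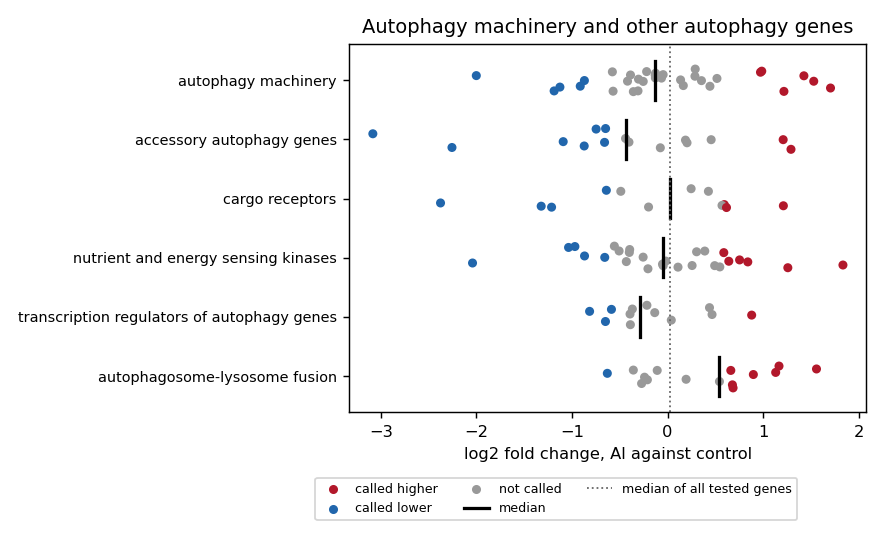
Log2 fold change of the 32 machinery genes and of 81 other autophagy genes in 5 lists (red called higher, blue called lower, gray not called), with the median of each list as a black bar and that of all tested genes (0.03) as a dotted line. Of the 5 other lists, fusion genes have the highest median, 0.54, and accessory genes the lowest, -0.44.

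Promoters were searched because TFEB and FoxO factors are known regulators of autophagy genes. RefSeq promoter windows on GRCm38.p6, from 250 bases before to 50 after a RefSeq transcript start, were matched by symbol for 26 of the 32 genes. The letters TCACGTG, the E-box core of the CLEAR element that TFEB binds, were found on either strand in windows of Atg14, Atg3 and Atg7, or 10% of 30 member windows, against 3.77% of all 32851 windows and 5.64% of those of tested genes. The forkhead core GTAAACA was found in 0 member windows against 3.65% of all windows and 2.47% of those of tested genes. These 3 windows are shown because they hold the match, printed in capitals, and Atg14 is the member with the largest increase. In Atg14 (chr14:47568385-47568684, minus strand) the match reads CACGTGA, the letters of the other strand, and begins at the base before that start, which lies 2215 bases inside the GENCODE gene. In Atg7 (chr6:114670846-114671145, plus strand) it begins 133 bases before a start that lies 27999 bases inside the gene, past its first GENCODE start. In Atg3 (chr16:45158579-45158878, plus strand), whose start lies 44 bases inside the gene, there are 3 matches, a pair of which overlap as TCACGTGA. A match is a description of letters and not a binding site.
Atg14: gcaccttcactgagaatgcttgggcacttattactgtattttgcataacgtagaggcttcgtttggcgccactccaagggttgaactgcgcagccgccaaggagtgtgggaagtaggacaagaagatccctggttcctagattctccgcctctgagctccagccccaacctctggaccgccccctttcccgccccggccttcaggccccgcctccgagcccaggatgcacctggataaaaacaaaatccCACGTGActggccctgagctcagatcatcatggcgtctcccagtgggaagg
Atg7: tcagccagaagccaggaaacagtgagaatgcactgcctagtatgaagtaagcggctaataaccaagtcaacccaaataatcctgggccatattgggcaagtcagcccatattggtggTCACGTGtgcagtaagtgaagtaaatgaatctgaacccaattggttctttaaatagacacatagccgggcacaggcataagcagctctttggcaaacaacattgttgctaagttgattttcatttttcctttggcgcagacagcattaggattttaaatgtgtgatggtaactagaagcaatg
Atg3: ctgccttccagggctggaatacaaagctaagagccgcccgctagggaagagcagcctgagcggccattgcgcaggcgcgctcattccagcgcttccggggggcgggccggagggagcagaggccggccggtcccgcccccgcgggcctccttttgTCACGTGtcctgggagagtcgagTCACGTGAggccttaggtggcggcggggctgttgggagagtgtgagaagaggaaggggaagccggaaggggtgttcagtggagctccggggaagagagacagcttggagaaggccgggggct
Of the 3 genes Atg14 rose, whereas Atg7 and Atg3 were not called (-0.36 and -0.13).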

How the data were processed

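RNA of HT22 cells was measured in 6 input libraries, 3 control and 3 Al. The values the authors deposited are FPKM per gene symbol, not scaled further between libraries. Their methods name Trimmomatic, SortMeRNA and HISAT2 on GRCm38/mm10, whereas the submitters' processing notes list fastp, HISAT2, HTSeq and GRCm39. The annotation behind the FPKM and the strand setting are not given in the sources used here. The titles of the treated libraries (letter M) do not name aluminum, and their group was inferred from the series design and from the study's tables, which use both M and Al.

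Low FPKM of a gene step by the worth of 1 read, and from these steps whole reads were recovered for 17688 of 17688 genes above 0 (each value within 0.01 of a whole read), with gene lengths whole within 0.01 base for 17666. These reads gave the depths, whose precision covers counting error only, and served as input to limma voom, an alternative that called 6551 genes.

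FPKM were divided by median-of-ratios size factors (0.799 to 1.20, from genes whose mean FPKM reached 1), and limma 3.58.1 in R 4.3.3 (lmFit, eBayes with trend) was run on log2(scaled FPKM + 0.1) over the 12889 genes whose mean FPKM reached 0.1. Fold changes are on that scale, which understates low genes. P was adjusted by Benjamini-Hochberg over this whole table. On simulated counts for 12889 genes the same fit called 94.0% of genes with a simulated log2 fold change of 1, 98.0% at 2 and 0.583% of unchanged genes. The simulation changed 100 genes at each size, as many up as down, with the same dispersion for every gene and no general shift between the groups. In the real data 50.6% of genes were called and the scaling mattered, so the simulation does not give the share of false calls there. The replicates are described by the study as biological, with no more detail, so P values measure the spread between these libraries.

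The members and lists were chosen with earlier results of these data known. All 32 members are named, and from each other list up to 2 genes with the largest gain and 2 with the largest loss among called genes that averaged 1 FPKM or more and whose groups did not overlap. Markers were fixed lists. Gene positions, overlaps and near-identical copies (at least 90% identity over 300 bases, minimap2 2.31-r1302) come from GENCODE M21 on GRCm38. Ratios used Python 3.11.15 and scipy 1.17.1. Alternatives covered scaling, pseudocount, filter, trend, thresholds, voom, thinning, a replicate block and each library left out. The immunoprecipitated libraries were not analysed here.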

Additional observations from a re-analysis of the deposited data

How the results depend on the processing

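Of the 32 genes, 6 (Atg101, Atg14 and Atg16l1 higher, Ulk2, Atg9a and Wipi1 lower) kept their call in all 19 alternatives. The counts of members called, 6 higher and 5 lower, became 4 and 17 with FPKM as deposited, 3 and 21 with TPM, 4 and 7 after quantile normalization and 4 and 3 at an absolute log2 fold change over 1, where 30.1% of all tested genes were called. The members' median of -0.13 became -0.60, -0.90 and -0.0724 under the scalings, -0.11 with a pseudocount of 1 and -0.10 with thinned reads, and ranged from -0.17 to -0.0815 with a library left out. The 39 other autophagy genes called (19 higher and 20 lower) became 49 (8 and 41) with FPKM as deposited, 51 (2 and 49) with TPM, 25 (10 and 15) after quantile normalization and 16 (8 and 8) at an absolute log2 fold change over 1, beside 56.0%, 62.4%, 46.1% and 30.1% of all tested genes. FPKM as deposited and TPM differ from the size factors by 1 factor per library, by construction, and for the other settings the cause was not tested.

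Signs turned for members that were not called and for called genes of the other lists, of which 8, Sec62 among them, turned with TPM and Sqstm1 also after quantile normalization. With FPKM as deposited Uvrag was -0.20, Ambra1 -0.0413, Atg2b -0.20, Atg5 -0.35, Atg12 -0.32 and Gabarapl1 -0.13. With TPM Becn1 was -0.27, Uvrag -0.50, Ambra1 -0.34, Atg2b -0.49, Atg5 -0.64, Atg12 -0.62, Gabarapl1 -0.43 and Sec62 -0.17. After quantile normalization Pik3c3 was 0.0767, Atg4a 0.20 and Gabarapl1 -0.00042. With a library left out Atg4a ranged from -0.25 to 0.0227, Atg4b from -0.14 to 0.0202, Atg4d from -0.30 to 0.0627, and the log2 ratio of Atg4b to Atg4a, 0.07, from -0.13 to 0.19, and that ratio was -0.0343 with a pseudocount of 1. Sec62 without control replicate 1 and Foxo3 and Stx17 without Al replicate 1 were no longer called (0.53, -0.46 and -0.55). Replicate numbers did not pair the samples (correlations of same-numbered deviations of -0.03, -0.03 and -0.07), no library correlated best with its own number, and the replicate block left 6 members higher and 5 lower, with 50.2% of all tested genes called in place of 50.6%. For the ratios a block allows no P under 0.25. Atg10, at 12 to 25 reads per Al library, limits what depth can show.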
